A study of Rattus norvegicus with 11 samples.

Results

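Paclitaxel with an implanted but inactive electrode was compared with no treatment in the spinal cord of male rats. The comparison uses 8 of the 11 libraries of the series: the 5 libraries whose group label is PTX+Sham SCS, called sham here, and the 3 labelled Naive. Sham rats were given paclitaxel into the peritoneum, 1.5 mg/kg on each of days 1, 3, 5 and 7, and carried an electrode for spinal cord stimulation (SCS) that was not switched on. Naive rats had neither, so drug and electrode differ together between the groups and cannot be told apart. The other 3 libraries, labelled PTX+SCS and called stimulated here, came from rats with the same drug whose electrode was run at 50 Hz with 0.2 ms pulses, and they are given only beside the results. All rats were adult males of 350 to 400 g, all samples were the ipsilateral spinal cord, and the labels name neither a strain nor the day of tissue collection. Titles carry X for sham and S for stimulated, which is open to misreading, so groups were taken from the group label alone.

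Paclitaxel is a chemotherapy drug that binds and stabilises microtubules, the tracks of transport along axons. Sensory axons are vulnerable to it, and treated patients and rodents can develop painful neuropathy with hypersensitivity to touch and cold. The spinal cord receives the input of these axons, and its neurons, astrocytes and microglia can change their gene expression after peripheral nerve injury. Stimulation electrodes lie over the cord, where their placement is itself a surgical procedure.

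Poly(A) RNA was sequenced, and each value is a count of reads per Ensembl rat gene ID. The deposited table gives these IDs alone. The reference gene table used here (47357 rows) pairs 0 of them with a symbol, so no gene could be named, the labelled tissue was not checked against its markers, and which functions the changed genes serve was not analysed. The IDs printed below were fixed by a rule on the size of the change, and the other changed genes are described as groups. Because whole tissue was sequenced, a change in the number of cells that express a gene and a change in the RNA per cell cannot be told apart.

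Total counts were 17401720 to 56775931 in the naive libraries and 11243288 to 22144967 in the sham libraries, so sham libraries were mostly shallower. Counts were found for 18788 to 20531 genes in naive and for 18105 to 19232 genes in sham libraries. The 20 most abundant genes took 13.1% to 13.9% of the counts in naive and 13.6% to 15.4% in sham libraries. Levels below are CPM, the counts of a gene per 1000000 counts of its library, after adjustment of library sizes, and n counts libraries.

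In the sham libraries 21 genes were higher and 1 was lower than in naive libraries, by the quasi-likelihood test of edgeR at an adjusted p under 0.05. These 22 genes are 0.14% of the 15758 tested, with 0.133% higher and 0.00635% lower. Nearly all the changes past this threshold were therefore increases, and most were large: 20 of the 21 genes rose at least 2-fold, with log2 fold changes from 0.65 to 5.31. Over all tested genes the median log2 fold change was 0.01 and the median size of the change, without its sign, was 0.09. In each of the 22 genes every sham library lay on the same side of every naive library, as was the case in 7.03% of all tested genes. Those tested genes were more evenly split, with 624 higher and 484 lower in sham libraries. The 22 genes were picked in these same libraries, so their separation is a description and no further support.

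**Figure D1:**
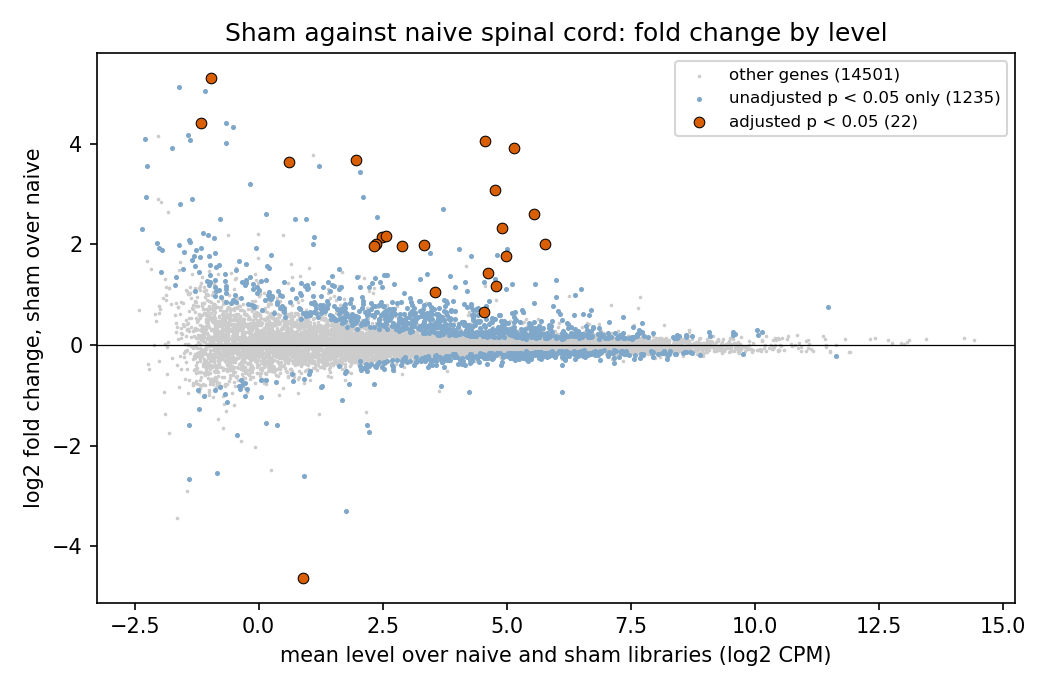
Each point is 1 of the 15758 tested genes, with its mean log2 CPM over the naive and sham libraries on the horizontal axis and its log2 fold change (sham over naive) on the vertical axis. Orange points mark the 22 genes past an adjusted p of 0.05, of which 21 lie above 0, and blue points mark genes past an unadjusted p of 0.05 only.

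The 21 higher genes covered a wide range of levels. With genes grouped by their mean level in naive libraries, 4 of the 21 were under 1 CPM there, 10 were between 1 and 10 CPM, and 7 were at 10 CPM or more. The grouping uses the naive side of the comparison, so it serves only to describe the genes. Among the 21 the highest naive mean was 23.6 CPM and the highest sham mean 100.4 CPM.

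The 4 genes under 1 CPM in naive libraries had naive means of 0.0175 to 0.794 CPM and sham means of 0.989 to 9.96 CPM. Their median level was 0.232, 0.163 and 0.175 CPM in naive 1, naive 2 and naive 3. It was 1.57, 1.87, 3.32, 1.47 and 3.98 CPM in sham 1 to sham 5. By this median every sham library was well above every naive library, with sham medians of 1.47 to 3.98 CPM. The log2 fold changes of these 4 genes were 3.64 to 5.31.

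ENSRNOG00000009907 had the largest rise. It had 0 counts in naive 1, 0 in naive 2 and 3 in naive 3, against 15, 24, 25, 9 and 39 counts in sham 1 to sham 5. In CPM these sham values are 0.702, 1.52, 1.77, 0.803 and 1.98. A count of 0 allows up to 0.174 CPM in naive 1 and 0.122 CPM in naive 2, taking 3 counts as the limit, so all 5 sham libraries were above what the naive libraries allow. With counts summed over each group, the sham level was 44.8 times the naive level, with an exact 95% interval of 14.96 to 221 that covers counting error only. The fitted log2 fold change was 5.31 ± 0.74 (SE, edgeR adjusted p = 0.00534). Its size rests on few naive counts, and it was 7.73 without naive 3, the only naive library with any. The call was lost without naive 2 (adjusted p = 0.0574), and adjusted p-values ran from 1.49e-05 to 0.0574 over 22 alternatives. With so few naive counts, the gene passed the filter on low counts through the groups given paclitaxel, where it is high. Its test therefore adds little to the count values above.

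ENSRNOG00000008310 had the next largest rise, at still lower levels. Naive libraries held 1, 2 and 1 counts, and sham 1 to sham 5 held 9, 12, 14, 5 and 46. In CPM these are 0.058, 0.0816 and 0.0175 for naive 1 to naive 3 and 0.421, 0.759, 0.989, 0.446 and 2.33 for the sham libraries. The groups did not overlap, and sham 5 was more than 2-fold above any other sham library. The summed sham level was 25.8 times the naive level (exact 95% interval 9.73 to 96.9, counting error only), but 15.8 times without sham 5, 14.5 times without naive 3 and 38.8 times without naive 2. The fitted log2 fold change was 4.41 ± 0.81 (SE, edgeR adjusted p = 0.0497), and it ranged from 2.96 with libraries thinned to equal depth to 4.92 without naive 2. The call was lost in 10 of the 18 alternatives in which the gene was tested, including those that leave out naive 1, naive 2, naive 3 or sham 4 (adjusted p = 0.251, 0.226, 0.414 and 0.0558) and stimulated 2 or stimulated 5 (0.058 and 0.0645). Among the 18 is a threshold of 0.1 on the same fit, which could not lose the call. Without sham 2, sham 3 or sham 5, and with a filter of at least 1 CPM in 3 libraries, it did not reach the filter and was not tested. It was the 1 of the 21 higher genes that passed the filter on low counts only through the sham libraries, where it is high, so its test adds nothing to the count values above. On the naive libraries alone, 18 of the 21 pass this filter. The rest entered the test through groups given paclitaxel, where they are high, so their tests share this limit at least in part.

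The 10 genes between 1 and 10 CPM in naive libraries showed the same separation at higher naive levels. Their median level was 3.92, 3.43 and 3.72 CPM in naive 1 to naive 3. In sham 1 to sham 5 it was 15.4, 10.1, 11.6, 13.1 and 17.7 CPM. The naive libraries were close to each other, while the sham libraries differed more among themselves. Their log2 fold changes were 1.05 to 4.07, with a median of 2.07, and their sham means reached from 8.33 to 100.4 CPM.

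The 7 genes at 10 CPM or more in naive libraries had log2 fold changes of 0.65 to 2.61 and a median of 1.76. Their median level was 15.4, 16.4 and 16.7 CPM in naive 1 to naive 3. It was 55, 39.2, 38.4, 48.4 and 60.6 CPM in sham 1 to sham 5. Sham means of these genes lay between 27.6 and 94.6 CPM.

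The 21 higher genes differed in how the gap between the groups compared with the spread inside them. In some, the sham libraries covered a wider log2 range than the gap. For ENSRNOG00000008310, log2 CPM minus the naive mean was 0.30 in the highest naive library and 1.89 to 4.14 in sham libraries. The test picks genes by the gap between the groups in the same libraries, so the values here describe the genes and add no support. In 17 of the 21 higher genes the lowest sham library was at least 2-fold above the highest naive library. Over all 21 this ratio of the lowest sham to the highest naive value was 1.29 to 13.4, with a median of 2.8. Among the 14392 tested genes with a mean of at least 1 CPM, 21 had every sham library at least 2-fold above every naive library, and 1 had every sham library at 50% or less of every naive library. Of the former 21 genes, 15 passed the test and 6 did not (edgeR adjusted p = 0.0808 to 0.381).

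The size of the rise varied between sham libraries. Across the 21 genes, the median log2 difference from the naive mean was 2.44 in sham 1, 1.92 in sham 2, 1.85 in sham 3, 1.96 in sham 4 and 2.58 in sham 5. Sham 1 was the highest sham library for 11 of the 21 genes and sham 5 for the other 10. Sham 3 was the lowest for 9 and sham 2 for 6. The level groups split differently: sham 1 was the highest for 5 of the 7 genes at 10 CPM or more in naive libraries, for 5 of the 10 between 1 and 10 CPM, and for 1 of the 4 under 1 CPM, where sham 5 was the highest for 3. The 2 libraries that were highest are also the deepest sham libraries, with 22144967 and 19570408 counts. The part of depth in this order was not tested.

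**Figure D2:**
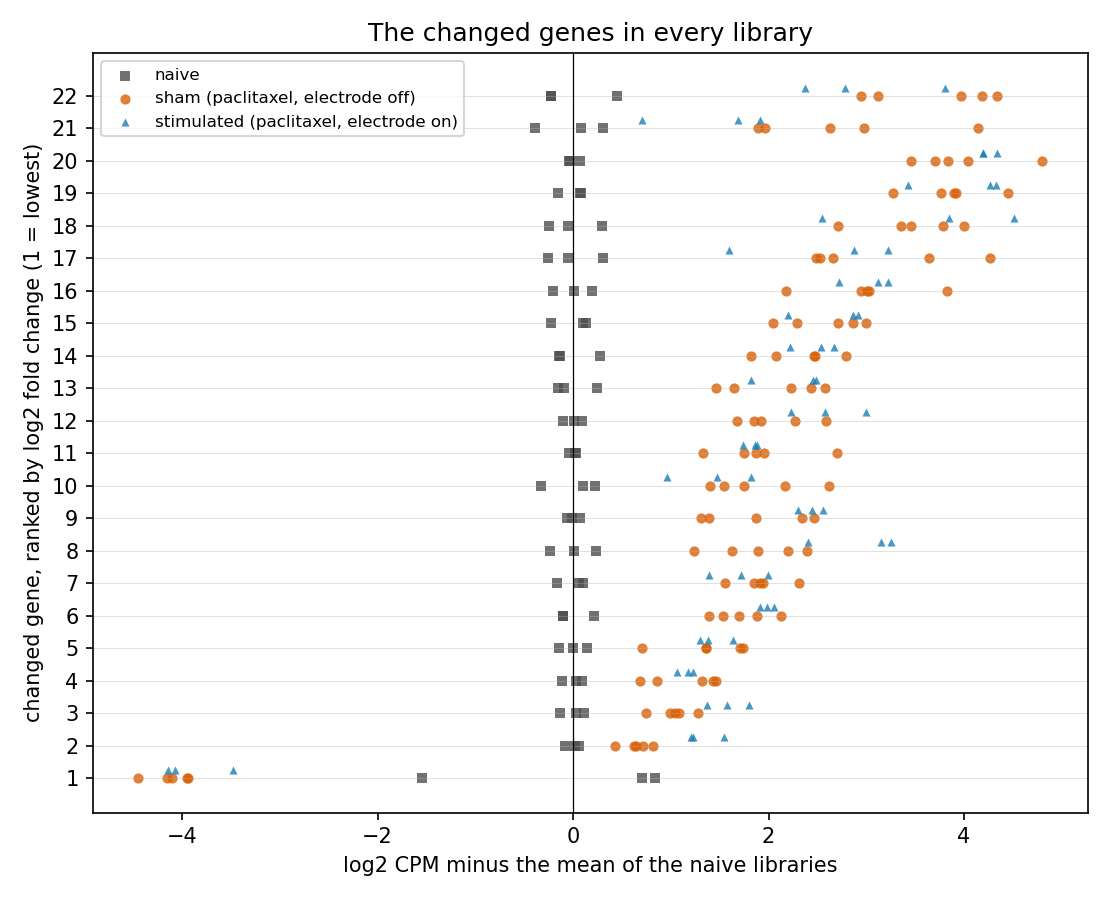
Each row is 1 of the 22 changed genes, ranked by log2 fold change, and each marker is 1 library, placed by its log2 CPM minus the mean of the 3 naive libraries. Sham libraries (orange circles) lie to the right of all naive libraries (grey squares) in 21 rows and to the left in 1, and stimulated libraries (blue triangles, drawn slightly higher) lie on the side of the sham libraries.

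Spread was larger in sham than in naive libraries. Of the 21 higher genes, 17 had a naive mean of at least 1 CPM, and all 17 had a larger SD of log2 CPM in sham than in naive libraries (median SD 0.42 and 0.14). The same was true of 75.4% of the 14322 tested genes at that level (median SD 0.13 and 0.08). These SDs rest on 5 and 3 libraries and were not tested against each other. Sham libraries were also mostly shallower, and the part of depth in the spread was not tested. The 17 genes were picked by the test in these same libraries, so their spread is a description only.

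ENSRNOG00000023387 was the only gene that fell. It held 341, 443 and 212 counts in naive 1 to naive 3 and 9, 10, 9, 6 and 11 counts in sham 1 to sham 5. Sham levels were uniform, at 0.421 to 0.636 CPM, while naive levels were 19.8, 18.1 and 3.71 CPM. The groups did not overlap, but naive 3 was far below the other naive libraries. On the log2 scale the fold change was -4.62 ± 0.52 (SE, edgeR adjusted p = 0.00534). The call was lost in 3 of 22 alternatives, namely limma-voom (adjusted p = 0.475), limma-voom with quality weights (0.36) and the fit of sham and naive libraries only (0.0775). Among the 22 is a threshold of 0.1 on the same fit, which could not lose the call. The stimulated libraries held 0.543, 0.91 and 0.574 CPM, near the sham level (log2 fold change 0.26 ± 0.68 from sham, SE, edgeR adjusted p = 0.877).

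Just outside the threshold the pattern continued upward. The next 10 genes by p were all higher in sham libraries, with log2 fold changes of 0.42 to 4.17 and edgeR adjusted p = 0.0618 to 0.0836. None of them overlapped between the groups, as in 7.03% of all tested genes. They were ranked by p in the same libraries, so this is a description only. At an adjusted p of 0.1, 31 genes were higher and 2 lower. At 0.25 the numbers were 83 and 5.

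At an unadjusted p under 0.05, without allowance for the number of tests, 856 genes were higher and 401 lower, together 7.98% of the tested genes. The higher ones made up 68.1% of these. Their fold changes had a median of 0.48 on the log2 scale, and 159 reached 2-fold or more. For the lower ones the median was -0.22, and 17 reached 2-fold or more. Median levels were 36.4 CPM for the lower genes, 12.4 CPM for the higher genes and 20.3 CPM over all tested genes, so the lower ones were the more abundant. With genes grouped by their mean over the sham and naive libraries, 76 were higher and 19 lower under 1 CPM, 305 and 64 between 1 and 10 CPM, and 475 and 318 at 10 CPM or more. Higher genes were thus the majority at each level.

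Counted in single libraries, 2-fold differences from the naive mean were unevenly spread over the sham group. Among the genes with a mean of at least 1 CPM, sham 1 to sham 5 had 117, 78, 136, 233 and 383 genes at least 2-fold higher, and 67, 65, 69, 99 and 56 at least 2-fold lower. Each naive library, set against the mean of the other naive libraries, had 37 to 75 genes higher and 49 to 75 lower. Sham 2 was thus close to the naive range, and sham 5 had the most higher genes of the sham group without more lower ones. Sham 4 had the lowest total (11243288 counts), and the part of depth in its number was not tested. The stimulated libraries had 561, 828 and 412 genes higher and 84, 108 and 51 lower.

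**Figure D3:**
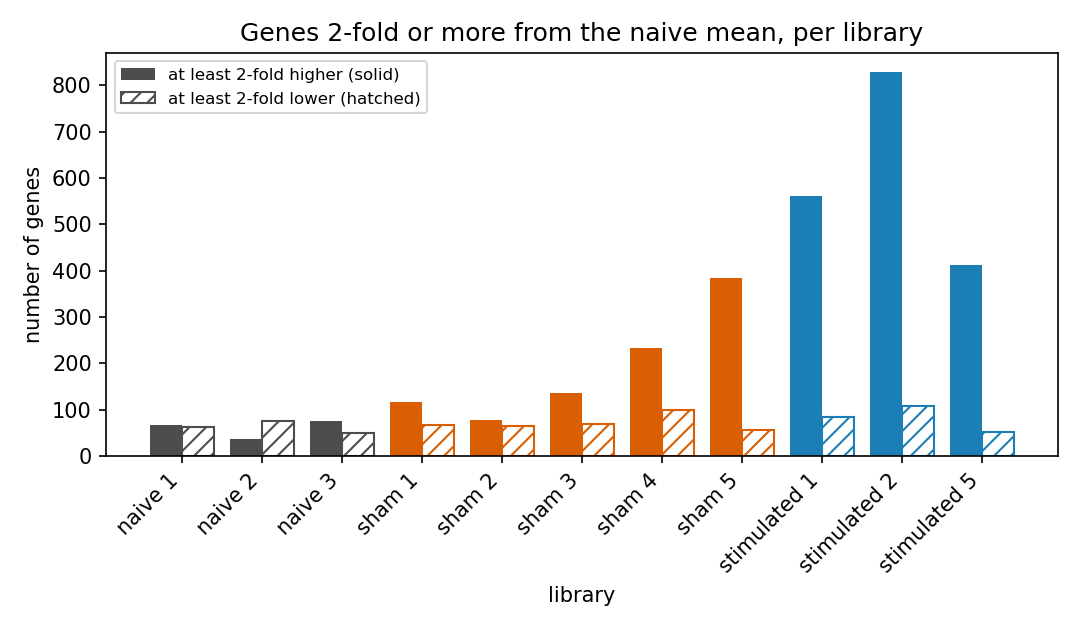
Bars give, for each library, the number of genes with a mean of at least 1 CPM that were at least 2-fold above (solid) or below (hatched) the mean of the naive libraries; naive libraries are set against the mean of the other naive libraries. Higher genes number 78 to 383 in the 5 sham libraries and 37 to 75 in the naive libraries, while lower genes number 56 to 99 and 49 to 75.

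The stimulated libraries, from rats with the same drug and an electrode, were set beside the sham libraries for these genes. In all 21 higher genes every stimulated library was above every naive library, as in 18.1% of all tested genes. The 21 genes were picked against the same naive libraries, so this count is a description and no independent support. For 16 of the 21 the stimulated mean lay within the range of the sham libraries, for 4 above it and for 1 below it. The comparison of stimulated with sham libraries shares the sham libraries with the one above, and values stand here side by side. Stimulated against sham libraries, 563 genes (3.57%) passed the test, and 2 of the 22 genes were among them, both further up. One of these had naive, sham and stimulated means of 17.6 ± 0.92, 27.6 ± 2.7 and 44.4 ± 6.0 CPM (SD, n = 3, 5 and 3). Its steps on the log2 scale were 0.65 ± 0.10 (SE, edgeR adjusted p = 0.0113) from naive to sham and 0.68 ± 0.09 (SE, edgeR adjusted p = 0.00402) from sham to stimulated. The other had means of 7.5 ± 0.63, 15.5 ± 2.0 and 22.7 ± 3.4 CPM (SD, n = 3, 5 and 3) in the same order, with steps of 1.05 ± 0.13 and 0.55 ± 0.12 (SE, edgeR adjusted p = 0.00251 and 0.0239).

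The other 20 changed genes did not pass in stimulated against sham libraries (edgeR adjusted p of at least 0.0544), which does not show that the groups were alike. Among the 4 genes under 1 CPM in naive libraries 3 had lower estimates in stimulated than in sham libraries, with log2 fold changes of -1.77 to 0.31 over the 4. ENSRNOG00000009907 was at 0.441, 1.34 and 0.618 CPM in the stimulated libraries (log2 fold change -0.81 ± 0.47 from sham, SE, edgeR adjusted p = 0.36). ENSRNOG00000008310 was at 0.136, 0.428 and 0.353 CPM there (log2 fold change -1.77 ± 0.62, SE, edgeR adjusted p = 0.122). Of the other 17 higher genes, 5 had lower estimates in stimulated libraries, and the medians of the log2 fold change were 0.17 for the 10 genes between 1 and 10 CPM and 0.06 for the 7 genes at 10 CPM or more.

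How many genes passed depended on single libraries and on the tool. Without naive 1, naive 2 or naive 3 the count of changed genes was 10, 6 and 11, of which 9, 6 and 9 were among the 22. It was 12 without sham 4, all among the 22, and 56 without sham 2, which held 21 of the 22. DESeq2 called 133 genes, including all 22. Over 21 settings (leaving out 1 library, other scalings, filters and tools, the replicate block, and thinning to equal depth), 3 of the 22 genes passed every time and 3 more in all but 1, and the median gene passed in 16.

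**Figure D4:**
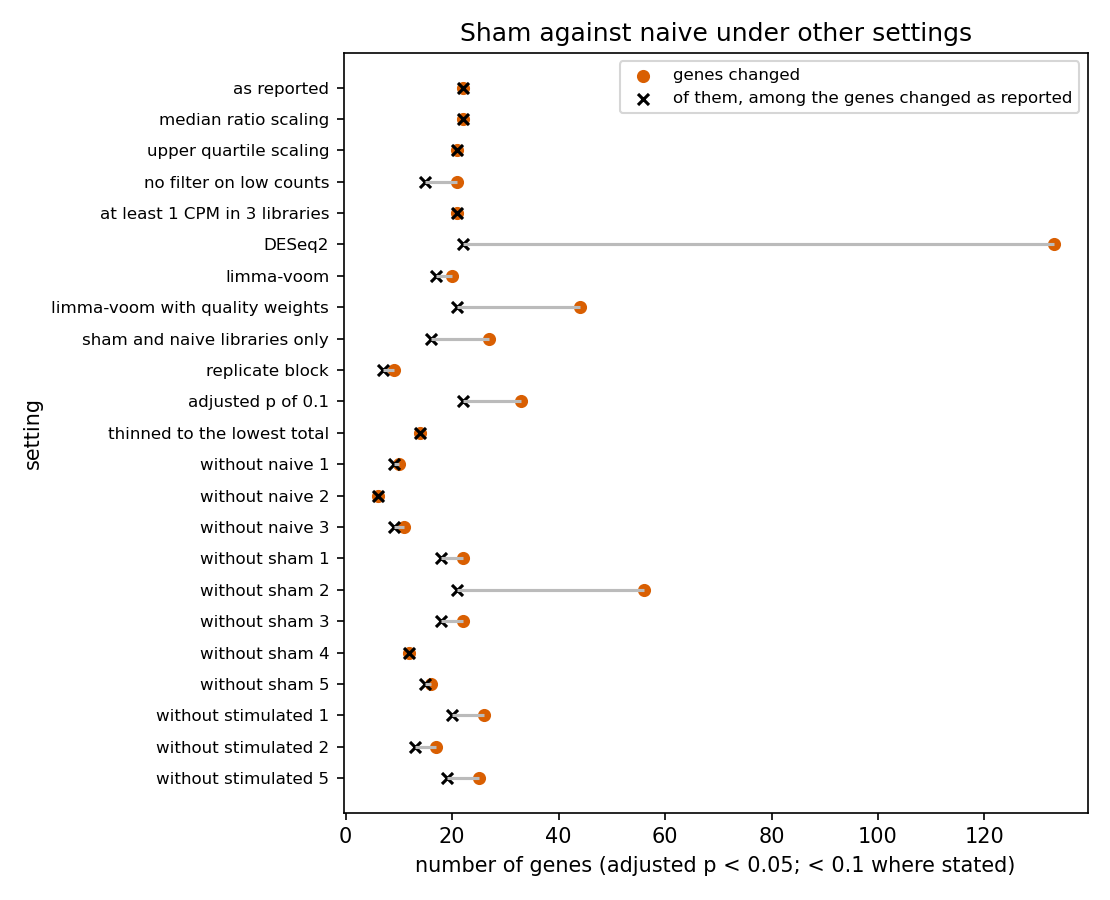
For each setting on the vertical axis the orange point gives the number of genes changed between sham and naive libraries and the cross the number of them that are among the 22 reported. Without sham 2 and with DESeq2 the counts rise to 56 and 133, and without a naive library they fall to 6 to 11.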

How the data were processed

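The authors deposited whole-number read counts per Ensembl rat gene ID, in 1 column per library. Libraries were directional and poly(A)-selected from 1 ug of total RNA, per the labels' protocols. HISAT2, featureCounts, DESeq2 and the build rn6 appear in the submitters' processing notes. The sources used here give no version, annotation or strand setting, so counts of overlapping or near-identical genes are uncertain. Columns were matched to samples by title, and 17 other sample columns were not used.

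The members, the gene lists and the tests were chosen with earlier results of these data known. The 46 gene lists (737 symbols) could not be applied, since 0 IDs matched the RefSeq GRCr8 table. Genes were to be named by symbol if past the threshold, among the 10 next by p, or from the lists; a changed gene with no symbol was to be printed by ID, at most 2 in each direction, by largest log2 fold change.

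filterByExpr of edgeR 4.0.16 (R 4.3.3) left 15758 of 32623 IDs, with at least 99.926% of each library's counts. All 11 libraries entered 1 quasi-likelihood fit (TMM scaling, a term per group, robust estimation), which leaves 8 residual degrees of freedom. All tests are two-sided, with Benjamini-Hochberg adjustment over all tested genes. The SE of a log2 fold change was derived from its size and the F statistic. CPM used scaled library sizes, and log2 CPM a prior count of 2. The spread was pooled over groups whose own biological coefficient of variation was 6.96% (naive), 11% (sham) and 14.4% (stimulated). The labels do not say that libraries came from separate rats, so p-values reflect only how these samples vary, which may be technical. No pair of libraries of 1 group agreed within sampling noise (chi-square per degree of freedom 5.02 or more). Alternatives used DESeq2 1.42.0 and limma 3.58.1. Thinning to equal depth, summed ratios without single libraries and grouping by the mean of both groups were added after seeing the data. So was the filter without sham libraries or on naive libraries alone. No library stood far from the rest of the sham group by Dixon's test in the 13 measures checked.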

Additional observations from a re-analysis of the deposited data

How the results depend on the processing

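When each library was left out in turn, 6 to 56 genes changed, 5 to 54 higher and 1 to 3 lower, and 715 to 1544 genes at an unadjusted p under 0.05. The low ends of the first, second and last came without naive 2, and the high ends of the first 2 without sham 2. DESeq2 gave 133 genes (124 higher, 9 lower) and limma-voom with quality weights 44 (42 higher, 2 lower); the cause was not tested. Thinning every library to the lowest total gave 14 genes, 13 of them higher, from fewer counts by construction. The number of lower genes was 3 with no filter on low counts, 2 at an adjusted p of 0.1, and 0 with limma-voom and in the fit of sham and naive libraries only. Those 2 settings had 20 and 27 higher genes. With the replicate number as a block, 9 genes passed (8 higher) and 774 at an unadjusted p under 0.05. Same-numbered libraries of different groups had correlations of their deviations from -0.17 to 0.13, with 2 of 8 over 0.1, so a shared number was not taken to mark a pair. ENSRNOG00000008310 also lost its call with upper quartile scaling (adjusted p 0.0506), limma-voom (0.138), the replicate block (0.162) and thinning (0.296). Settings fixed for the gene lists were not run, since 0 IDs matched. At 11243288 to 22144967 counts per sham library, genes under 1 CPM rest on few counts.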
